A study of Homo sapiens with 31 samples.

Results

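Aminoacyl-tRNA synthetases are the enzymes that attach each amino acid to its tRNA, and so set the supply of charged tRNA that ribosomes draw on. Their mRNAs were described here through 10 transcripts of 10 genes, out of 34313 transcripts kept after neighbours of like counts were dropped and 227264 listed in the files. The members were given by Ensembl transcript ID. Each was accepted when the length listed beside its counts lay within 5 of the protein length in amino acids minus 9, the codons left after trimming of the ends of the coding region, and all 10 matched exactly. The members were EPRS1 (ENST00000366923), LARS1 (ENST00000394434), MARS1 (ENST00000262027), QARS1 (ENST00000306125), KARS1 (ENST00000302445), VARS1 (ENST00000375663), GARS1 (ENST00000389266), AARS1 (ENST00000261772), NARS1 (ENST00000256854) and SARS1 (ENST00000234677).

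The cells were HEK293 T-REx, a human embryonic kidney line built for inducible transgenes, and the series concerns how the helicase eIF4A1 and the RNA-binding protein LARP1 act on translation when mTORC1 is inhibited. Ribosome profiling, which counts the mRNA fragments (footprints) that ribosomes protect from nuclease, covered 3 genotypes: naive, knockout (KO) of EIF4A1, and KO of EIF4A2. Each genotype had 2 libraries with DMSO, the solvent control, and 1 library each after 30 min of 1 µM or 10 µM PP242, an mTOR kinase inhibitor. RNA-seq of the untreated naive line and the EIF4A1 KO line had 2 libraries per genotype. Streptavidin pulldown of SBP-eIF4A1 or SBP-eIF4A2, the helicases with a streptavidin-binding peptide, had 2 input and 2 pulldown libraries per protein. In a further SBP-eIF4A1 experiment, cells had 72 h of siRNA: control siRNA (siControl) had 2 input and 2 pulldown libraries, and LARP1 siRNA (siLARP1) 2 input libraries and 1 pulldown library.

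The labels do not say whether replicates were separate cultures or how many clones a knockout line represents, so p-values measure the spread between these libraries, which may be technical. The EIF4A2 KO, SBP-eIF4A2 and RNA-seq libraries were listed as a later set of samples than all other libraries. Whether the sets were prepared apart is not stated. In comparisons across them, genotype or tagged protein and set cannot be told apart. Where footprints are set against RNA-seq, assay and set cannot be told apart. The genotypes and the knockdown rest on the labels, because EIF4A1, EIF4A2 and LARP1 were not analysed here, nor were markers of the cell line or a pulldown from cells without the tag. Levels are CPM, counts scaled to the library size after TMM adjustment, so each change is relative to the other mRNAs of the library, and in bulk samples fewer cells and less RNA per cell cannot be told apart. A member's raw count was 258 to 3433 per ribosome profiling library, 2467 to 12154 per RNA-seq library and 768 to 11053 per pulldown or input library.

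Cytosolic synthetases fall into class I and class II by the fold of the catalytic domain. Of the members, LARS1, VARS1, MARS1 and QARS1 are class I, GARS1, AARS1, NARS1, KARS1 and SARS1 are class II, and EPRS1 joins one domain of each class. A set of them is held in the multi-tRNA synthetase complex, represented here by 5 members: EPRS1, which charges both glutamate and proline, LARS1 (leucine), MARS1 (methionine), QARS1 (glutamine) and KARS1 (lysine). The other 5, VARS1 (valine), GARS1 (glycine), AARS1 (alanine), NARS1 (asparagine) and SARS1 (serine), act outside it. Synthetase genes are textbook targets of ATF4, the transcription factor of the amino acid response, which binds C/EBP-ATF elements. mRNAs that begin with a C followed by a run of pyrimidines, the terminal oligopyrimidine (TOP) type, are those whose translation falls most when mTORC1 is inhibited, and LARP1 binds their starts.

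Transcription start windows of RefSeq (GRCh38.p14) were found for 8 of the 10 members (not LARS1 and VARS1), in 10 windows. The starts of the 2 members whose footprints fell with PP242 in every genotype, QARS1 and KARS1, are shown beside that of EPRS1, whose response differed between genotypes. Each line runs from 10 bases before the annotated start, and the capitals mark the start base and the 4 bases after it.
QARS1, chr3:49104738-49104767, minus strand: gcctaagtttCTTTTagtttccggtgtctc
KARS1, chr16:75647646-75647675, minus strand: tatcctccttACTTTtgggtcgggccctcc
EPRS1, chr1:220046486-220046515, minus strand: ggggcggagcGAAGGctgcggcggcgtcgg
A C at the annotated start followed by at least 4 pyrimidines was found in 1 of the 10 member windows, that of QARS1. Over all windows of the table, 1429 of 35116 (4.07%) began that way. In the KARS1 window the annotated base is an A, with a pyrimidine directly on each side. The same holds for AARS1 and MARS1, which were not called with PP242 in any genotype.

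The core of the C/EBP-ATF element, TGATGNAA on either strand, was searched in 300-base windows that run from 250 bases before the start to 50 after it. It was found in 4 of the 8 members, AARS1, GARS1, MARS1 and NARS1, and in 1270 of 35116 windows (3.62%). The 4 matches are shown because of the mRNA changes in EIF4A1 KO cells. AARS1, MARS1 and GARS1 were 3 of the 4 genes with the lowest change. The other of those 4, EPRS1, had no match, and neither had SARS1 or KARS1, whose mRNA was also called lower. QARS1, also without a match, was not called. A part of ATF4 in these changes was not tested. The capitals mark the core, shown in the direction of the gene, so that in AARS1, GARS1 and MARS1 its reverse complement is seen. Each distance is that of the first base of the match, and the MARS1 match spans the annotated start.
AARS1, chr16:70289675-70289704, 187 bases upstream of the start: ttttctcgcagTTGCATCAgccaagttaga
GARS1, chr7:30594834-30594863, 33 bases upstream of the downstream one of its 2 annotated starts: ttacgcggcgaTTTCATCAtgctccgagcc
MARS1, chr12:57488053-57488082, 4 bases upstream of the start: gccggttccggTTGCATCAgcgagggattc
NARS1, chr18:57621804-57621833, 14 bases downstream of the start: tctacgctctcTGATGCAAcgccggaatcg
GARS1 has annotated starts at 30594735 and 30594878 on chromosome 7, and the window of the first holds no match. These are matches of letters, not measured binding sites, and NARS1, with a match, had a log2 mRNA change of -0.00.

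In naive cells, untreated for mRNA and with DMSO for footprints, mRNA levels ranged from 120.3 to 537 CPM per 1000 codons. Footprints ranged from 188 to 494. Without VARS1, the lowest in both, the ranges were alike, 223 to 537 and 217 to 494. Per 1000 codons of counted coding sequence, SARS1 had the highest mRNA level, 537 CPM ± 3.81 (SD, n = 2), followed by KARS1 at 504 ± 4.03, LARS1 at 481 ± 3.96 and NARS1 at 462 ± 11.1. QARS1 at 399.5 ± 10.5 and MARS1 at 394 ± 4.79 did not differ beyond their spread. AARS1 at 317 ± 11.1, EPRS1 at 303 ± 2.51 and GARS1 at 223 ± 2.72 followed, and VARS1 was lowest at 120.3 ± 8.51. Footprints per 1000 codons were highest for NARS1, 494 CPM ± 4.36 (SD, n = 2), and KARS1, 457 ± 19.0. LARS1 at 426 ± 19.1, SARS1 at 379 ± 3.26, EPRS1 at 362 ± 1.43 and GARS1 at 340 ± 11.9 came next. AARS1 at 310 ± 6.99 and MARS1 at 301 ± 17.7 overlapped, and QARS1 at 217 ± 6.71 and VARS1 at 188 ± 8.95 were lowest.

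The log2 ratio of footprint to mRNA CPM, a measure of how densely an mRNA is translated, had a median of 0.04 over 18352 transcripts in naive cells. VARS1 stood at 0.63, between 0.51 and 0.75 over the pairs of libraries, and GARS1 at 0.59, between 0.54 and 0.65. QARS1 was the lowest member at -0.89, between -0.95 and -0.83, followed by SARS1 at -0.52 and MARS1 at -0.40. LARS1 (-0.19), KARS1 (-0.16), AARS1 (-0.05), NARS1 (0.08) and EPRS1 (0.24) lay between. VARS1, the member with the least mRNA per codon, and GARS1 did not differ beyond their spread. VARS1 stood at the 75.4th percentile of these transcripts and QARS1 at the 14.7th. The ratio sets libraries of separate assays side by side, so it was not tested.

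The RNA-seq comparison asked which mRNA levels differ when cells lack EIF4A1. Synthetase mRNAs were lower in EIF4A1 KO cells: 7 of 10 fell at an adjusted p under 0.05 and none rose. In this comparison 18.8% of 24825 transcripts were called lower. Such background shares cover all transcripts tested and are not matched to the members in count, which bears on how small a change is called. AARS1 and MARS1 fell most, by 34.1% and 30.6%, and QARS1 and NARS1, 2 of the 3 members not called, stood near 0. All 10 log2 changes were below 0, with a median of -0.21 against -0.00174 over all transcripts tested.

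AARS1, which charges alanine, had 296.1 and 311.2 CPM in the naive libraries and 201.4 and 198.5 in the KO libraries. Its log2 change was -0.60 ± 0.04 (SE; edgeR adjusted p = 1.8e-14). The MARS1 mRNA, for methionine, had 348.3 and 354.3 CPM against 239.7 and 247.6. In each of these genes both KO libraries lay well below both naive libraries, and MARS1 fell by 0.53 ± 0.04 on the log2 scale (edgeR adjusted p = 1.2e-13).

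EPRS1, the largest member at 1503 counted codons, went from 458.5 and 453.2 CPM to 333.0 and 349.1, a log2 change of -0.42 ± 0.03 (edgeR adjusted p = 1.0e-11). GARS1, for glycine, went from 161.1 and 163.9 CPM to 124.0 and 125.6, a log2 change of -0.38 ± 0.04 (edgeR adjusted p = 6.1e-09). The groups did not overlap in either gene. SARS1, for serine, fell by 0.25 ± 0.04 (edgeR adjusted p = 1.7e-06) and LARS1, for leucine, by 0.17 ± 0.03 (edgeR adjusted p = 6.6e-05) on the log2 scale.

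KARS1 had 294.6 and 298.0 CPM in naive and 272.4 and 279.5 in KO cells. Its log2 change of -0.10 ± 0.04 passed narrowly (edgeR adjusted p = 0.021), and the call was lost with DESeq2 (adjusted p = 0.088) and without naive replicate 2, KO replicate 1 or KO replicate 2 (adjusted p = 0.053, 0.26 and 0.059). VARS1 was not called at -0.09 ± 0.04 (edgeR adjusted p = 0.10), although without naive replicate 1 its change was -0.17 (adjusted p = 0.0028). QARS1 had 300.4 and 311.7 CPM against 297.0 and 302.2, overlapping groups, with a log2 change of -0.03 ± 0.04 (edgeR adjusted p = 0.54). NARS1 had 253.0 and 244.6 CPM against 238.3 and 259.4, and its interval of 2 SE ran from -0.08 to 0.08.

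Of the 5 members in the complex 4 were lower, and of the 5 outside it 3 were. At an unadjusted p under 0.05, 8 of the 10 passed, all lower, as did 11111 of the 24825 transcripts in either direction.

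**Figure D1:**
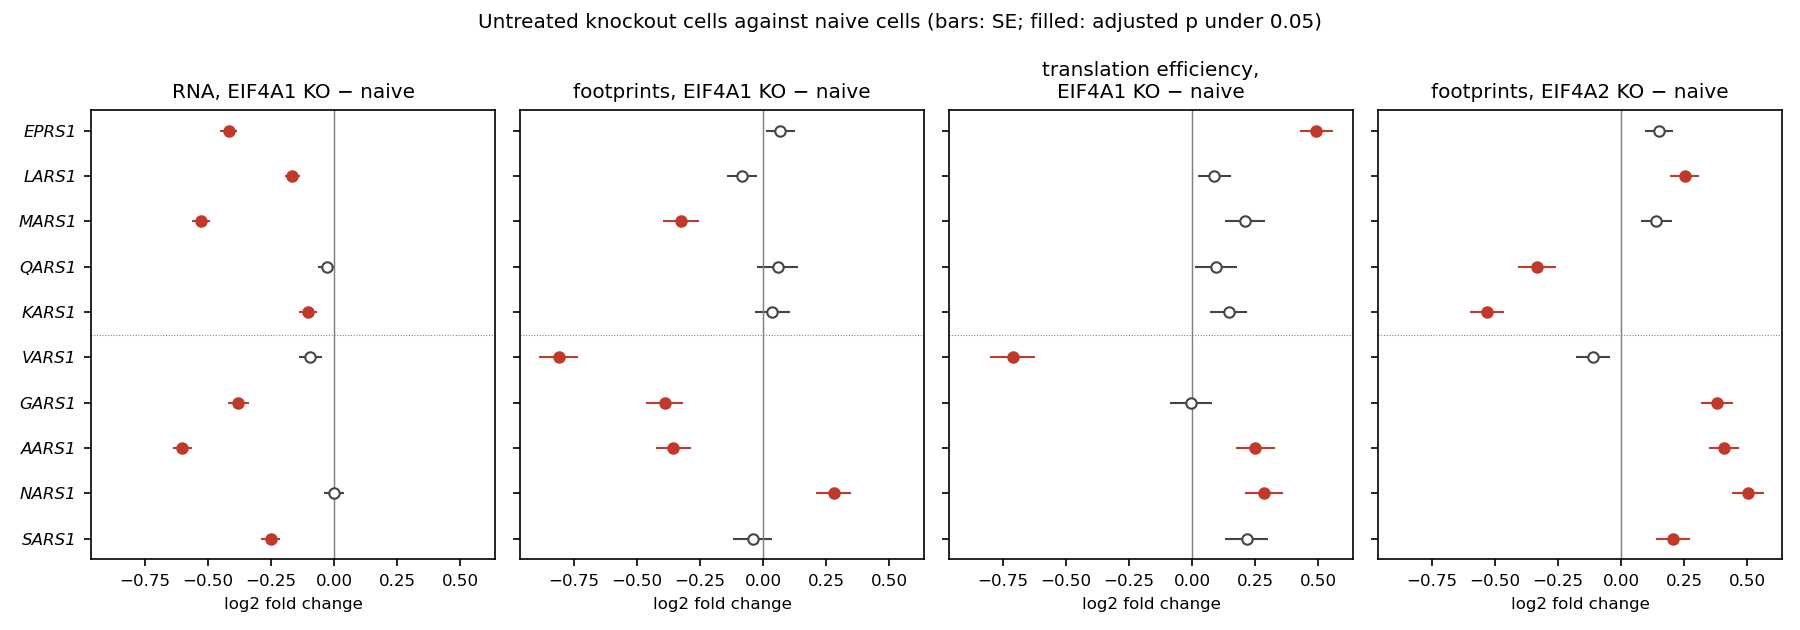
Log2 fold changes (horizontal axis) of the 10 members (vertical axis, complex members above the dotted line) without PP242. Shown are mRNA, footprints and translation efficiency in EIF4A1 KO against naive cells, and footprints in EIF4A2 KO against naive cells. The footprint libraries had DMSO. Bars are 1 SE and filled points passed an adjusted p under 0.05: mRNA changes reach -0.60 for AARS1, and VARS1 footprints stand at -0.81.

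Footprints in DMSO-treated cells give each mRNA's share of all footprints without the mTOR inhibitor. That share depends on the level of the mRNA as well as on its translation. In EIF4A1 KO cells 4 members were lower, VARS1, GARS1, AARS1 and MARS1, and NARS1 was higher. Over the 19650 transcripts tested 11.9% were called lower and 10.9% higher. The member that fell most, VARS1, was not called in mRNA level.

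VARS1, for valine, had 228.3 and 244.1 CPM of footprints in naive cells and 134.4 and 135.0 in EIF4A1 KO cells. Its log2 change was -0.81 ± 0.08 (SE; edgeR adjusted p = 6.2e-16), so that it fell by 43.0%, and the groups were far apart. In EIF4A2 KO cells VARS1 had 227.8 and 209.2 CPM, both below the lower naive library, and the log2 change of -0.11 ± 0.07 was not called (edgeR adjusted p = 0.35).

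GARS1 had 254.1 and 241.8 CPM in naive cells, 193.2 and 184.7 without EIF4A1, and 314.9 and 329.4 without EIF4A2. Its footprints thus fell in the one line, by 0.39 ± 0.07 on the log2 scale (edgeR adjusted p = 9.1e-06), and rose in the other, by 0.38 ± 0.06 (edgeR adjusted p = 1.9e-06). AARS1 had 292.3 and 301.8 CPM in naive cells, 237.3 and 226.6 without EIF4A1, and 406.2 and 381.5 without EIF4A2. It followed GARS1, with log2 changes of -0.36 ± 0.07 and 0.41 ± 0.06 (edgeR adjusted p = 1.9e-05 and 9.0e-08), and in both genes the 3 genotypes did not overlap.

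MARS1 had 257.2 and 279.5 CPM in naive and 220.9 and 207.9 in EIF4A1 KO cells, a log2 change of -0.32 ± 0.07 (edgeR adjusted p = 1.8e-04). The 2 EIF4A2 KO libraries, at 296.2 and 295.1, lay above naive, but the change of 0.14 ± 0.06 was not called (edgeR adjusted p = 0.18). NARS1, for asparagine, was the member higher in both knockouts: 264.8 and 268.1 CPM in naive cells, 336.0 and 310.2 without EIF4A1, and 352.8 and 401.0 without EIF4A2. It rose by 0.28 ± 0.07 (edgeR adjusted p = 7.7e-04) in the first and 0.50 ± 0.06 (edgeR adjusted p = 1.4e-10) in the second on the log2 scale, and the first call was lost without EIF4A1 KO replicate 1 (0.21, adjusted p = 0.088).

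In EIF4A2 KO cells 5 members were higher, NARS1, AARS1, GARS1, LARS1 and SARS1, against a background of 3.77% called higher. KARS1 and QARS1 were lower, against 4.37% called lower. Both lowered members belong to the complex, and 4 of the 5 raised ones lie outside it. LARS1 had 512.4 and 480.8 CPM in naive and 580.4 and 600.0 in EIF4A2 KO cells (log2 change 0.25 ± 0.06, edgeR adjusted p = 6.8e-04; 0.065 without naive replicate 2).

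KARS1 had 260.7 and 276.5 CPM in naive cells, 282.0 and 268.8 without EIF4A1, and 185.2 and 186.3 without EIF4A2. The EIF4A2 KO libraries alone were low, by 0.53 ± 0.07 on the log2 scale (edgeR adjusted p = 1.8e-10). QARS1 had 162.8 and 170.1 CPM in naive cells, 184.1 and 162.0 without EIF4A1, and 135.0 and 129.1 without EIF4A2, where the log2 change was -0.33 ± 0.07 (edgeR adjusted p = 6.9e-04). SARS1 went from 190.2 and 192.5 CPM in naive to 215.9 and 225.2 in EIF4A2 KO cells, a log2 change of 0.21 ± 0.07 (edgeR adjusted p = 0.042), a call that was lost without any 1 of the 4 libraries compared (adjusted p from 0.081 to 0.30), with DESeq2 (0.22), without the count filter (0.056) and over all distinct transcripts (0.065). RNA-seq of EIF4A2 KO cells was not analysed here, so whether mRNA levels moved with these footprints was not tested.

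Set directly against each other, the 2 knockouts differed in 9 of 10 members. In EIF4A1 KO cells 7 members were lower than in EIF4A2 KO cells (background 11.7%) and KARS1 and QARS1 were higher (background 11.0%). All 5 members outside the complex were among the lower ones. GARS1 and AARS1 differed most, by -0.77 ± 0.07 and -0.76 ± 0.07 on the log2 scale (edgeR adjusted p = 3.0e-17 and 2.1e-18), and VARS1 by -0.70 ± 0.08 (edgeR adjusted p = 1.3e-12). MARS1 stood at -0.46 and LARS1 at -0.33, both called.

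KARS1 was higher by 0.57 ± 0.07 (edgeR adjusted p = 8.0e-11) and QARS1 by 0.39 ± 0.08 (edgeR adjusted p = 8.9e-05; 0.058 without EIF4A1 KO replicate 1). SARS1 at -0.25 and NARS1 at -0.22 passed (edgeR adjusted p = 0.0099 and 0.0072) but not with DESeq2 (0.084 and 0.076) or without replicate 2 of either knockout (0.078 to 0.35). SARS1 stood at -0.14 without EIF4A1 KO replicate 2, and NARS1 at -0.13 without EIF4A2 KO replicate 2. EPRS1, with 577.8 and 563.3 CPM without EIF4A1 and 619.8 and 586.0 without EIF4A2, was not called (-0.08 ± 0.06, edgeR adjusted p = 0.35). The naive libraries are shared by both knockout comparisons, and all 6 DMSO libraries share 1 estimate of the spread. The EIF4A2 KO libraries belong to the later set of samples, so loss of EIF4A2 and set cannot be told apart here.

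Translation efficiency here is the footprint change left after that of the mRNA. It could be tested for EIF4A1 KO cells in 1 model of both assays. The RNA-seq libraries belong to the later set of samples and these footprint libraries do not, so assay and set cannot be told apart. EPRS1 rose most, NARS1 and AARS1 also rose, and VARS1 fell. Of the 24612 transcripts tested 4.22% were called higher and 5.41% lower. EPRS1 had less mRNA but level footprints: 545.6 and 542.6 CPM of footprints in naive and 577.8 and 563.3 in KO cells, against the mRNA decrease given above. The interaction was 0.49 ± 0.07 (edgeR adjusted p = 1.3e-08).

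For VARS1 the footprints fell without a called change of mRNA, and the interaction was -0.71 ± 0.09 (edgeR adjusted p = 3.0e-09). NARS1 stood at 0.28 ± 0.08 (edgeR adjusted p = 0.0063) and AARS1 at 0.25 ± 0.08 (edgeR adjusted p = 0.023). The AARS1 call was lost without any library other than naive RNA-seq replicate 1 (adjusted p from 0.069 to 0.43). The NARS1 call was lost without either naive DMSO library, EIF4A1 KO DMSO replicate 1 or KO RNA-seq replicate 1 (0.057 to 0.36). Without EIF4A1 KO DMSO replicate 1 the values were 0.16 for NARS1 and 0.15 for AARS1. GARS1, lower in both mRNA and footprints, stood at -0.00 ± 0.08, and SARS1 (0.22), MARS1 (0.21), KARS1 (0.14), QARS1 (0.09) and LARS1 (0.09) were not called.

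**Figure D2:**
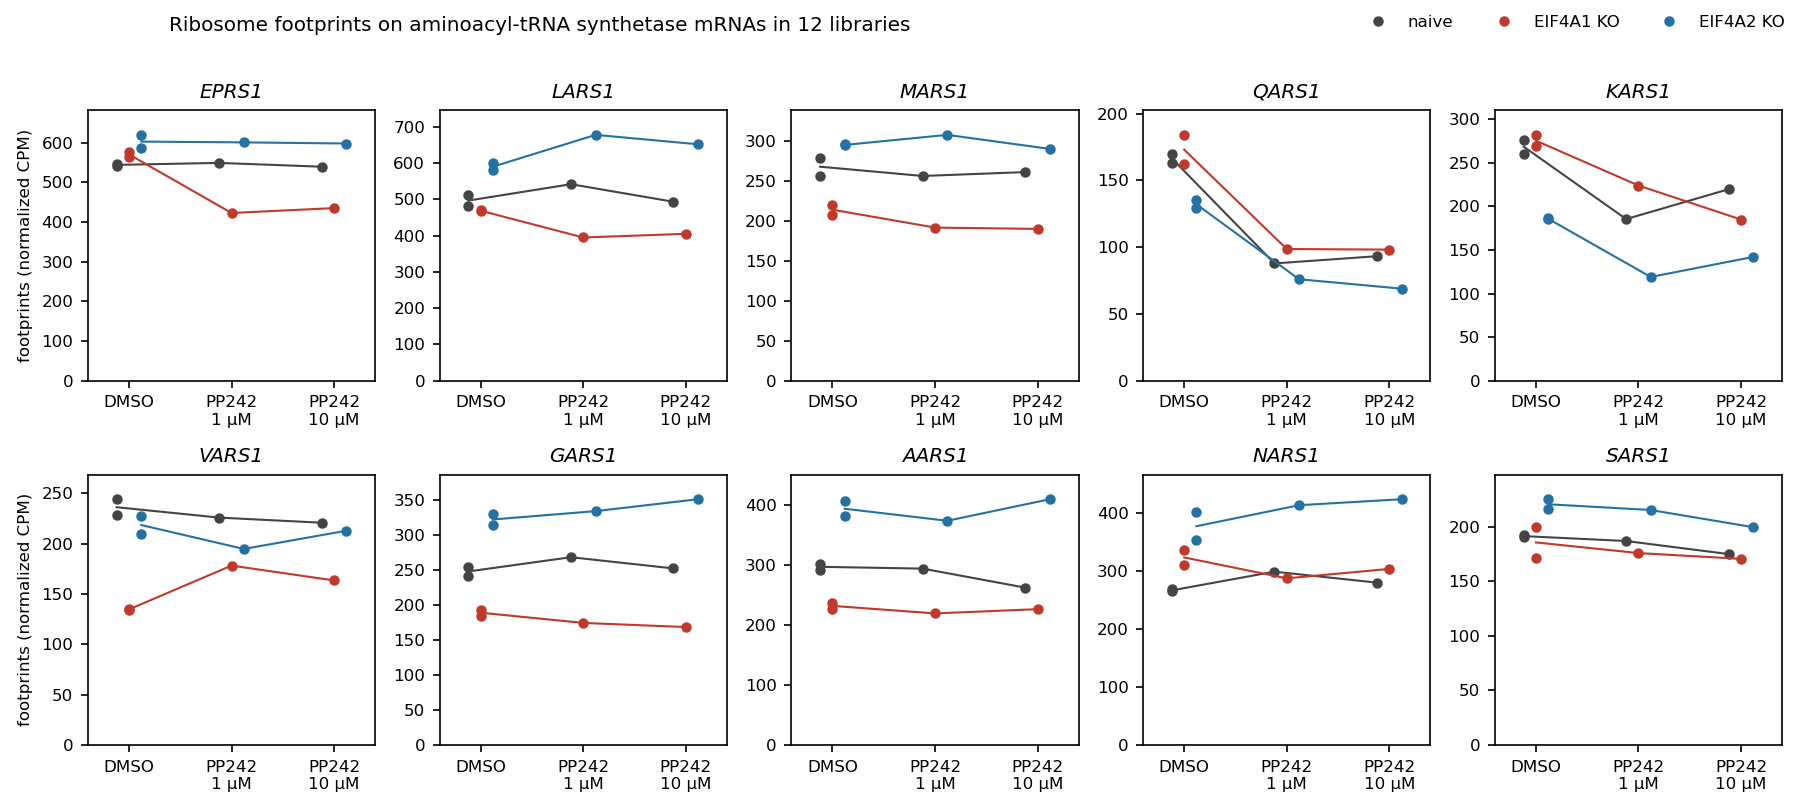
Footprints in normalized CPM (vertical axis, from 0) for each member in the 3 genotypes with DMSO, 1 µM or 10 µM PP242 (horizontal axis). Each point is 1 library and lines join the group means: QARS1 falls from 162.8 and 170.1 to 87.8 and 93.2 CPM in naive cells and in parallel in both knockouts, while EPRS1 falls to 422.9 and 435.1 in EIF4A1 KO cells.

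PP242 was applied to ask which mRNAs lose ribosomes when mTOR is inhibited, and whether that depends on the helicase. QARS1 fell by nearly the same amount in all 3 genotypes and KARS1 by less. The 5 members outside the complex were not called lower in any genotype. EPRS1 and LARS1 fell in the EIF4A1 KO line, where VARS1 rose. With 1 library per dose, both doses were set together against DMSO, and this coding was chosen with earlier results of these data known.

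QARS1 went from 162.8 and 170.1 CPM with DMSO to 87.8 at 1 µM and 93.2 at 10 µM in naive cells. The EIF4A1 KO line had 184.1 and 162.0 CPM without and 98.6 and 98.2 with PP242, and the EIF4A2 KO line 135.0 and 129.1 without and 76.0 and 68.9 with it. In each genotype both doses lay far below both DMSO libraries, and the 2 doses were close together. The log2 changes were -0.89 ± 0.09, -0.82 ± 0.09 and -0.87 ± 0.09 (edgeR adjusted p = 1.2e-13, 5.7e-12 and 3.5e-13), so footprints fell by 45.9%, fell by 43.2% and fell by 45.2%.

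KARS1 went from 260.7 and 276.5 CPM to 185.4 at 1 µM and 219.7 at 10 µM in naive cells. The EIF4A1 KO line had 282.0 and 268.8 CPM without PP242 and 223.9 and 184.9 with it, in the same order of doses, and the EIF4A2 KO line 185.2 and 186.3 without and 119.0 and 142.0 with it. The doses differed more than for QARS1, and neither dose was the lower one in every genotype. The log2 changes were -0.42 ± 0.08, -0.44 ± 0.08 and -0.51 ± 0.08 (edgeR adjusted p = 6.2e-05, 5.9e-05 and 2.6e-06). The naive call was lost in edgeR without the library of the lower dose (-0.29, adjusted p = 0.073), and the EIF4A1 KO call without that of the higher dose (-0.29, adjusted p = 0.056).

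QARS1 and KARS1 were the 2 members called in naive cells (background 5.76% lower) and in EIF4A2 KO cells (background 7.09% lower). They were 2 of the 4 called lower in EIF4A1 KO cells (background 3.8% lower). All 4 of these belong to the complex. With a dose score in place of either dose, QARS1 kept its call in naive and EIF4A2 KO cells, and every other PP242 call of a member was lost, QARS1 in EIF4A1 KO cells among them (-0.44 per step, edgeR adjusted p = 0.073). The mRNA response to PP242 was not analysed here.

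EPRS1 had 545.6 and 542.6 CPM with DMSO, 549.1 at 1 µM and 539.5 at 10 µM in naive cells, a log2 change of 0.00 ± 0.06 (edgeR adjusted p = 0.99). The EIF4A1 KO line went from 577.8 and 563.3 CPM to 422.9 and 435.1, and both doses lay below every DMSO library. That change was -0.41 ± 0.06 (edgeR adjusted p = 1.0e-06). In EIF4A2 KO cells EPRS1 had 619.8 and 586.0 CPM with DMSO and 600.8 and 598.0 with PP242, which overlap (-0.01 ± 0.06, edgeR adjusted p = 0.96).

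LARS1 had 512.4 and 480.8 CPM in naive cells with DMSO and 541.7 and 493.2 with 1 and 10 µM PP242. Without EIF4A1 it fell from 469.6 and 467.6 to 394.8 and 404.9 CPM, and without EIF4A2 the levels were 580.4 and 600.0 with DMSO and 677.7 and 651.8 with PP242. Both doses were thus below DMSO in the one line and above it in the other. The log2 changes were 0.06 ± 0.06 (edgeR adjusted p = 0.63) in naive cells, -0.23 ± 0.07 (0.021) without EIF4A1 and 0.17 ± 0.06 (0.053) without EIF4A2. The EIF4A1 KO call was lost without any 1 of that line's 4 libraries (adjusted p from 0.068 to 0.18), and the EIF4A2 KO value passed without either naive PP242 library (0.046).

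VARS1 had 228.3 and 244.1 CPM with DMSO and 225.9 and 220.8 with PP242 in naive cells. The EIF4A1 KO line went from 134.4 and 135.0 CPM to 178.2 at 1 µM and 163.5 at 10 µM, and VARS1 was the 1 member called higher there (background 2.37% higher). That change was 0.34 ± 0.08 (edgeR adjusted p = 0.0056), and the call was lost without either DMSO library or the 1 µM library of that line (adjusted p from 0.064 to 0.11). The PP242 levels of VARS1 in EIF4A1 KO cells stayed below every naive library. The 2 EIF4A1 KO DMSO libraries that are low for VARS1 enter both this change and the genotype comparison.

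In naive cells the other 5 ranged from -0.09 for AARS1 to 0.12 for NARS1 on the log2 scale, with VARS1 at -0.08. Without EIF4A1, MARS1 (-0.17), GARS1 (-0.14), NARS1 (-0.13), SARS1 (-0.10) and AARS1 (-0.06) were all below 0 and none was called. Without EIF4A2, the values were 0.15 for NARS1, 0.09 for GARS1, 0.02 for MARS1, -0.01 for AARS1, -0.09 for SARS1 and -0.10 for VARS1, and none was called.

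The responses were then set against each other in the same fit. The PP242 response was lower in EIF4A1 KO than in naive cells for EPRS1 and LARS1 (background 2.54% lower) and higher for VARS1 (background 3.65% higher). The same 3 members were called against EIF4A2 KO cells, with the same signs (backgrounds 2.64% lower and 3.68% higher), and the EIF4A1 KO libraries are shared by both comparisons. EPRS1 differed by -0.41 ± 0.09 from naive (edgeR adjusted p = 9.3e-04) and by -0.40 ± 0.09 from EIF4A2 KO cells (edgeR adjusted p = 0.0011).

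For LARS1 the differences were -0.29 ± 0.09 (edgeR adjusted p = 0.038) and -0.40 ± 0.09 (edgeR adjusted p = 0.0017). The first was lost without naive DMSO replicate 2, the naive 1 µM library or any 1 of the EIF4A1 KO libraries (adjusted p from 0.061 to 0.25), and without the count filter (0.051). For VARS1 they were 0.42 ± 0.11 (edgeR adjusted p = 0.011) and 0.44 ± 0.11 (edgeR adjusted p = 0.0073). The first was lost without naive DMSO replicate 2, either EIF4A1 KO DMSO library or the EIF4A1 KO 1 µM library (0.051 to 0.083), and the second without replicate 1 of either knockout's DMSO pair or either knockout's 1 µM library (0.052 to 0.071).

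QARS1, the member with the deepest response, did not differ detectably between genotypes: 0.07 ± 0.12 for EIF4A1 KO minus naive, with an interval of 2 SE from -0.18 to 0.31. KARS1 stood at -0.02 ± 0.11, from -0.25 to 0.20. NARS1, at -0.28 against EIF4A2 KO cells, was called without EIF4A2 KO DMSO replicate 2 (-0.36, edgeR adjusted p = 0.031). Between EIF4A2 KO and naive cells no member was called by edgeR (background 0.0937% in either direction), none had an unadjusted p under 0.05, where 1294 of 20269 transcripts did, and DESeq2 called none. The members ranged there from -0.09 for KARS1 to 0.11 for LARS1.

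**Figure D3:**
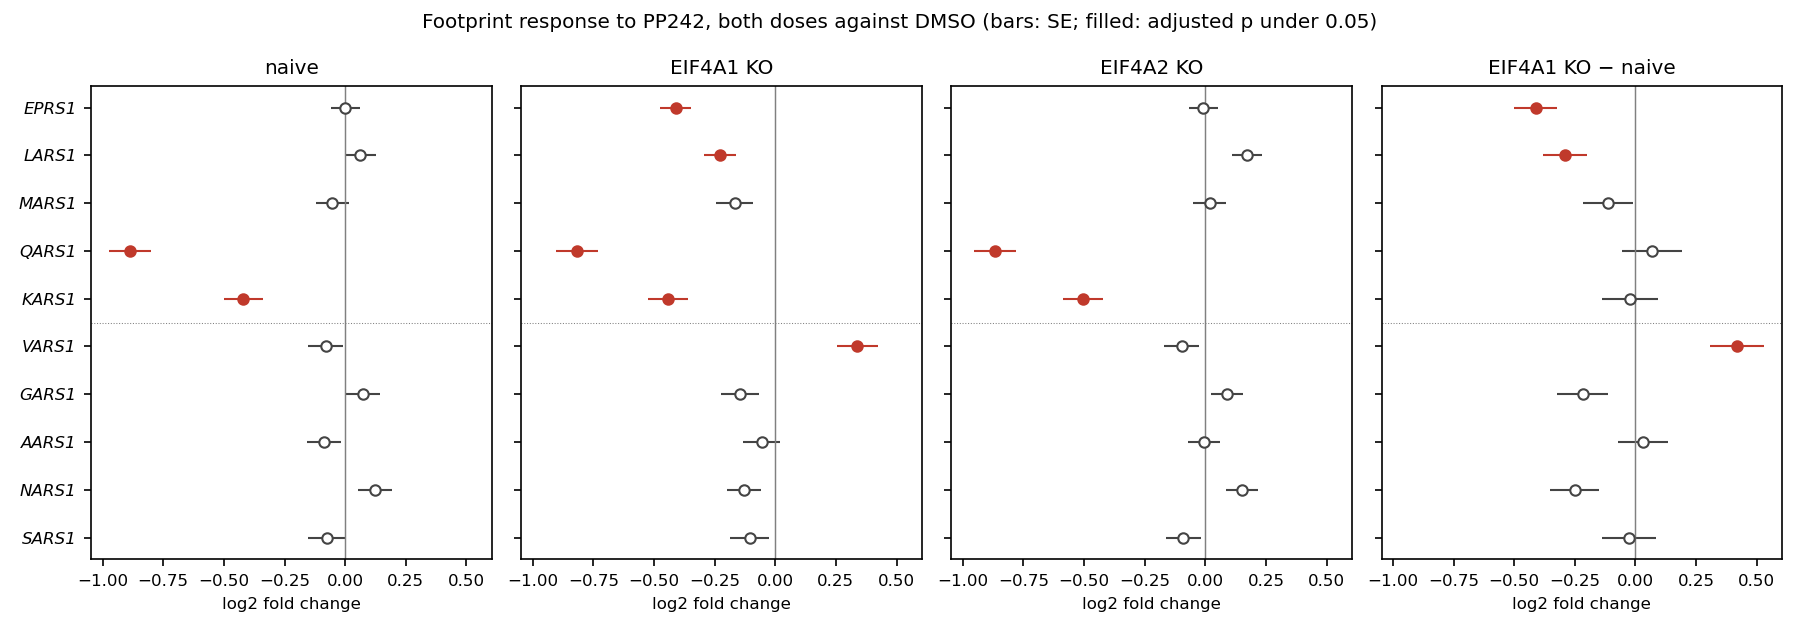
Log2 change of footprints with PP242 (both doses against DMSO; horizontal axis) for each member (vertical axis, complex members above the dotted line) in the 3 genotypes, and the difference of the EIF4A1 KO and naive responses. Bars are 1 SE and filled points passed an adjusted p under 0.05: QARS1 lies between -0.89 and -0.82 in every genotype, and EPRS1 at -0.41 in EIF4A1 KO cells.

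The pulldown asked which mRNAs travel with each helicase. All 10 synthetase mRNAs were depleted from the SBP-eIF4A1 pulldown relative to input, where 26.7% of 25506 transcripts were called lower, and from the SBP-eIF4A2 pulldown, where 30.2% were. The median log2 change of the members was -1.04 and -1.09, against 0.03 and 0.02 over all transcripts tested. EPRS1 was the most depleted member in both. QARS1 was the least depleted with SBP-eIF4A1, and with SBP-eIF4A2 QARS1 and MARS1 did not differ beyond their spread.

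EPRS1 had 489.2 and 510.4 CPM in the SBP-eIF4A1 inputs and 117.4 and 116.5 in the pulldowns, a log2 change of -2.10 ± 0.06 (edgeR adjusted p = 1.5e-13). With SBP-eIF4A2 it had 484.1 and 512.9 against 104.6 and 114.4 (-2.19 ± 0.06, edgeR adjusted p = 5.5e-14). All 4 pulldown libraries lay far below all 4 inputs. QARS1 had 312.4 and 321.0 CPM against 256.3 and 277.7 with SBP-eIF4A1 (-0.25 ± 0.06, edgeR adjusted p = 0.0011), and 333.1 and 333.3 against 225.8 and 231.8 with SBP-eIF4A2 (-0.54 ± 0.05, edgeR adjusted p = 2.0e-07).

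LARS1 (-1.26), AARS1 (-1.25), VARS1 (-1.15), GARS1 (-1.06) and KARS1 (-1.01) lay below -1 with SBP-eIF4A1, and NARS1 (-0.84), SARS1 (-0.80) and MARS1 (-0.61) above it. With SBP-eIF4A2 the values were -1.55 for KARS1, -1.27 for GARS1, -1.22 for VARS1, -1.09 for AARS1 and LARS1, -0.97 for NARS1, -0.88 for SARS1 and -0.56 for MARS1. Over all transcripts the log2 change fell with counted length, with a Spearman rho of -0.19 for SBP-eIF4A1 and -0.09 for SBP-eIF4A2 (25506 transcripts, which share libraries and are not replicates). Each member is longer than their median of 209 codons, and the part of length in the depletion was not tested.

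Capture by the 2 helicases differed for KARS1 and QARS1, both less depleted with SBP-eIF4A1 (background 10.6% higher). KARS1 had 243.6 and 233.4 CPM in input and 121.1 and 115.7 in pulldown with SBP-eIF4A1, and 302.7 and 306.1 against 96.5 and 111.6 with SBP-eIF4A2. The difference was 0.54 ± 0.09 (edgeR adjusted p = 7.5e-04). The input levels differ between the proteins as well as the pulldown levels. The SBP-eIF4A2 libraries belong to the later set of samples, so protein and set cannot be told apart here. QARS1 differed by 0.30 ± 0.08 (edgeR adjusted p = 0.014), which was lost without SBP-eIF4A1 input replicate 1, SBP-eIF4A1 pulldown replicate 2 or either SBP-eIF4A2 input (adjusted p from 0.070 to 0.090).

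The other 8 members ranged from -0.17 for LARS1 to 0.21 for GARS1 in this comparison. Without SBP-eIF4A2 pulldown replicate 2 GARS1 was called higher (0.34, edgeR adjusted p = 4.3e-04). Without SBP-eIF4A2 pulldown replicate 1 LARS1 and AARS1 were called lower (-0.22 each, edgeR adjusted p = 0.014 and 0.019).

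In the siRNA experiment capture by SBP-eIF4A1 took another order. After siControl 5 members were depleted, KARS1, EPRS1, GARS1, SARS1 and NARS1 (background 24.1% lower), VARS1 was enriched (background 25.0% higher), and LARS1, QARS1, MARS1 and AARS1 stood near 0. KARS1 had 297.5 and 331.9 CPM in input and 78.8 and 77.6 in pulldown (-2.01 ± 0.19, edgeR adjusted p = 5.4e-11). EPRS1 had 498.9 and 543.4 against 121.2 and 143.7 (-1.98 ± 0.18, edgeR adjusted p = 6.7e-11).

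GARS1 stood at -1.48 ± 0.19, SARS1 at -1.45 ± 0.18 and NARS1 at -0.62 ± 0.18 (edgeR adjusted p = 4.5e-08, 3.8e-08 and 0.0040). VARS1 had 160.4 and 94.9 CPM in its inputs, which disagree, and 262.6 and 239.2 in its pulldowns, above both. Its log2 change was 0.97 ± 0.20 (edgeR adjusted p = 1.3e-04), and 0.60 without input replicate 2 (adjusted p = 0.062). LARS1 had 609.2 and 692.6 CPM against 595.8 and 687.1, so that input and pulldown overlapped.

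Set against the experiment without siRNA, capture was higher after siControl for VARS1, LARS1, AARS1 and MARS1 (background 26.7% higher) and lower for KARS1, SARS1 and GARS1 (background 24.2% lower). Without siRNA, VARS1 had 151.0 and 150.9 CPM in input and 68.3 and 68.3 in pulldown, low where the siControl pulldowns were high. VARS1 differed by 2.17 ± 0.25, LARS1 by 1.30 ± 0.15, AARS1 by 1.20 ± 0.14 and MARS1 by 0.74 ± 0.14 on the log2 scale (edgeR adjusted p = 5.9e-06, 6.9e-06, 5.5e-06 and 4.4e-04). KARS1 differed by -0.94 ± 0.14 and SARS1 by -0.59 ± 0.13 (edgeR adjusted p = 7.3e-05 and 0.0023). GARS1 at -0.36 ± 0.14 (edgeR adjusted p = 0.044) was lost with DESeq2 (0.058), without the count filter (0.083) and without any 1 of 5 of the 8 libraries, both inputs and both pulldowns without siRNA and siControl input replicate 2 (0.10 to 0.18).

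EPRS1 (0.18), NARS1 (0.28) and QARS1 (0.29) were not called. EPRS1 and NARS1 were called without siControl pulldown replicate 1 (0.33 and 0.36, edgeR adjusted p = 0.029 and 0.025), and QARS1 without siControl input replicate 1 (0.42, adjusted p = 0.032). The siRNA and the experiment cannot be told apart here. Over all transcripts the siControl log2 change rose with counted length (Spearman rho 0.15), the opposite sign to the experiment without siRNA.

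LARP1 knockdown was compared first in the inputs. No member was called by edgeR between siLARP1 and siControl (background 0.453% in either direction), 3 had an unadjusted p under 0.05, as did 3150 of 25602 transcripts, and DESeq2 called none. Those 3 were SARS1 (-0.46 ± 0.18), GARS1 (-0.44 ± 0.18) and VARS1 (0.46 ± 0.20), with edgeR adjusted p = 0.26, 0.29 and 0.32. SARS1 had 307.3 and 322.7 CPM with siControl and 251.4 and 208.1 with siLARP1, which do not overlap. At this SE, changes of the size seen for LARS1 and KARS1 mRNA between genotypes were not detectable.

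Capture after LARP1 knockdown rests on 1 pulldown library and has no test. The log2 ratio of pulldown to mean input in that library differed from the siControl mean by -0.28 for AARS1, the lowest, to 0.15 for SARS1, the highest, with a median of -0.02. AARS1 had -0.10 and -0.12 in the siControl libraries and -0.40 with siLARP1. VARS1 had 1.04 and 0.91 against 0.73, over siControl inputs that disagree (160.4 and 94.9 CPM), and EPRS1 -2.10 and -1.86 against -2.17. The siLARP1 ratio was below both siControl ratios for 5 members and above both for 3. Those above were GARS1 (-1.47 and -1.49 against -1.35), NARS1 (-0.66 and -0.57 against -0.48) and SARS1 (-1.43 and -1.47 against -1.29). LARS1 (-0.13 and 0.08 against 0.06) and MARS1 (0.13 and 0.02 against 0.07) lay between.

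QARS1, the member with a pyrimidine start, had 0.02 and -0.06 with siControl and -0.08 with siLARP1. KARS1 had -2.00 and -2.02 against -2.05. The siLARP1 pulldown level was below both siControl pulldown levels for 8 members and above both for 1, VARS1. VARS1 had 292.3 CPM with siLARP1 against 262.6 and 239.2 with siControl.

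**Figure D4:**
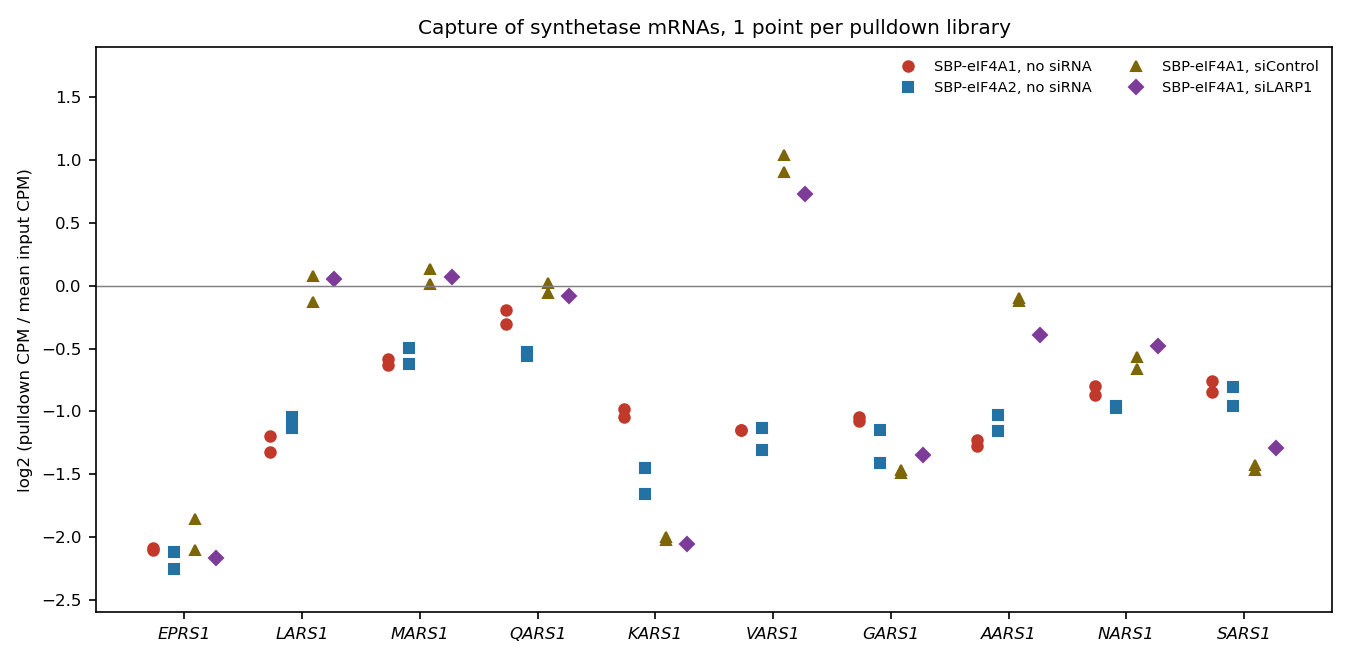
Log2 ratio of pulldown CPM to mean input CPM (vertical axis) for each member (horizontal axis), 1 point per pulldown library, for SBP-eIF4A1 and SBP-eIF4A2 without siRNA and for SBP-eIF4A1 after siControl or siLARP1. EPRS1 lies between -2.25 and -1.86 in every library, while VARS1 is near -1.15 with SBP-eIF4A1 without siRNA and at 0.91 and 1.04 after siControl.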

How the data were processed

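The authors deposited, per library, a file of raw counts per Ensembl transcript with a length beside each. Reads were processed with CASAVA 1.8 and STAR 2.7.0a against hg38, per the submitters' processing notes. The counting tool and the annotation are not given in the sources used here. The length that the authors deposited beside the counts has no header and was read as counted codons because it equals the protein length minus 9 for all members. Per the labels' protocols, ribosome profiling used RNase I and ribosome pelleting, and the other libraries a stranded mRNA kit.

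The members, their groups and the tests were chosen with earlier results of these data known. Every member was tested in every comparison that has a test. Values are given for those called and for the highest and lowest, but not for every member that was not called. How a read shared by isoforms was counted is not given in the sources used here, so a member's count may include reads of its other transcripts. KARS1 had 1 neighbour of like profile with slightly more counts. Transcripts with equal counts were collapsed to 77343. Then neighbours of like profile were dropped, which left 34313: a transcript was dropped when its log2 CPM (pseudocount 0.5) correlated at 0.9 or more with a kept one within 10 rows. Isoforms of 1 gene that correlated less were kept, so a background share can count a gene more than once. The members were always kept.

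Library totals over kept transcripts were 2513050 to 6413684 for ribosome profiling, 19660566 to 21577201 for RNA-seq and 11864670 to 17594839 for pulldown and input. All members passed the count filter (filterByExpr, minimum count 10, total 15). edgeR 4.0.16 in R 4.3.3 fitted TMM-scaled counts by quasi-likelihood, two-sided, with Benjamini-Hochberg adjustment over all transcripts of a comparison, called under 0.05. Scripts were tested on simulated data. The alternatives were DESeq2 1.42.0 (Wald test), its size factors in edgeR, no count filter, all 77343 distinct transcripts, a PP242 dose score of 0, 1 and 2, a replicate block, and leaving out each library. Other synthetases and complex scaffolds were not analysed here, because no table used here pairs transcript and gene names. Promoter windows are from RefSeq (GRCh38.p14).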

Additional observations from a re-analysis of the deposited data

Results flagged for a closer look

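Some results differed between groups under the same contrast, each by a test of the difference itself in edgeR with adjustment over all transcripts. In the PP242 response, EIF4A1 KO minus naive, EPRS1 differed by -0.41, LARS1 by -0.29 and VARS1 by 0.42 on the log2 scale. EIF4A1 KO minus EIF4A2 KO gave -0.40 for EPRS1, -0.40 for LARS1 and 0.44 for VARS1, with the EIF4A1 KO libraries in common. Backgrounds were 2.54% lower and 3.65% higher against naive cells, and 2.64% and 3.68% against EIF4A2 KO cells. The LARS1 difference from naive cells and both VARS1 differences were lost without some single libraries, as given above. In both comparisons the 2 genotypes without EIF4A1 loss had changes near 0 for EPRS1.

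Capture by SBP-eIF4A1 was less depleted than that by SBP-eIF4A2 for KARS1, by 0.54, and for QARS1, by 0.30 (background 10.6% higher). The QARS1 call was lost without some single libraries, and protein and set of samples cannot be told apart. Between the siControl experiment and the one without siRNA, SBP-eIF4A1 capture was higher for VARS1 by 2.17, LARS1 by 1.30, AARS1 by 1.20 and MARS1 by 0.74. It differed by -0.94 for KARS1, -0.59 for SARS1 and -0.36 for GARS1, and the GARS1 call was lost without some single libraries. Over all 25019 transcripts tested, 26.7% were called higher in that comparison and 24.2% lower. These 7 differences are between experiments as well as between siRNA and none, which cannot be told apart. No group held more than 2 libraries, so no single library was examined as an outlier.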

How the results depend on the processing

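Under all alternatives no member's change that was called reversed its sign. Counts of called members moved by more than 1.5 times in these cases. With a dose score in place of either dose against DMSO, the number of PP242 members called was 1 in naive (against 2), 0 in EIF4A1 KO (against 5), 1 in EIF4A2 KO (against 2), 0 for EIF4A1 KO minus naive (against 3) and 0 for EIF4A1 KO minus EIF4A2 KO (against 3). That score called 292, 0, 455, 2 and 1 transcripts in all, against 1932, 1252, 2434, 1254 and 1282, and 0 against 19 for EIF4A2 KO minus naive. Leaving out 1 library at a time gave 2 to 4 members for translation efficiency, 1 to 2 for PP242 in naive, 3 to 5 in EIF4A1 KO, 1 to 3 for EIF4A1 KO minus naive and 1 to 4 for capture by the 2 helicases. With 1 library left in a group, that library is assumed to vary like the other groups.

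With replicate number as a block, 6 rather than 7 members were called for footprints of EIF4A2 KO against naive cells, because SARS1 was lost (adjusted p = 0.097), and no other call of a member changed. The labels do not say that a number marks a shared culture. Same-numbered siControl input and pulldown libraries deviated together with a correlation of 0.59, and the main fit did not pair them. The other correlations of same-numbered libraries ran from -0.19 to 0.13.

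Counts over all transcripts also moved. DESeq2 called 5405 against 9218 for mRNA, 2223 against 4490, 524 against 1599 and 2262 against 4469 for the 3 footprint comparisons, 1140, 741 and 1458 for PP242 in the 3 genotypes, 660, 742 and 7 for their differences, and 366 against 116 for siLARP1 inputs. Without the filter siLARP1 inputs gave 436. Testing all distinct transcripts, which is more tests, gave 2.89 to 5.33 times as many calls over the 17 comparisons. Leaving out 1 library gave 2581 to 4582, 785 to 1650 and 2640 to 4426 for the 3 footprint comparisons, 1522 to 2439 for translation efficiency (against 2371), 869 to 1974, 453 to 1276 and 1479 to 2463 for PP242 in the 3 genotypes, 661 to 1382, 587 to 1315 and 4 to 40 for their differences, 2395 to 7703 for capture by the 2 helicases (against 4153) and 11 to 339 for siLARP1 inputs. With DESeq2 size factors 50.9% rather than 62.1% of the siLARP1 input calls were higher, and 7.14% rather than 21.1% for the PP242 difference of EIF4A2 KO and naive cells. The cause of the shifts other than those from more tests or fewer libraries was not tested. A member had as few as 258 counts in a ribosome profiling library.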

Other observations

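Over the 12 ribosome profiling libraries the log2 CPM of AARS1 and GARS1 was most alike among the 45 pairs of members (Pearson r = 0.96), followed by GARS1 and MARS1 (0.96). KARS1 and QARS1, both lowered by PP242 and in EIF4A2 KO cells, had r = 0.84. The least alike pair was KARS1 and NARS1 (r = -0.74). The libraries fall into genotype and treatment groups and share depth and scaling, so these values are descriptions.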
